A study of Mus musculus with 2 samples.

Results

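The Car2-high progenitors described here were 314 of 7823 cells kept from a single-cell RNA experiment on mouse bone marrow. They were chosen on measured counts. A cell qualified with at least 4 unique molecular identifiers (UMIs, each marking 1 captured transcript) of Car2, with none of Dntt, Il7r, Mpo, Ctsg, Elane or Ms4a3, and with at most 1 summed over Hlf, Mecom, Procr and Mllt3. These 11 genes are therefore a description of the choice and support nothing else. Of 781 kept cells with at least 4 Car2 UMIs, 309 held Dntt, 173 held a granule transcript, 131 held 2 or more UMIs of the 4 stem genes and 5 held Il7r, with some cells counted under several of these.

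The cells had been sorted as multipotent progenitors, lineage-negative and positive for Sca-1, c-kit and CD34, with a further gate that the labels write as Flt3L+. One sample came from C57BL/6 wild-type mice and the other from C57BL/6 Spp1-/- mice, which lack osteopontin, a secreted matrix protein and cytokine. Both groups had received an intraperitoneal injection of thioglycollate, used to provoke sterile inflammation, 20 h earlier, so no untreated marrow was measured. The labels give neither the age nor the number of mice, and the sort sets which cells could be seen. The 2 libraries are told apart by a barcode suffix that nothing used here ties to a genotype, so they are called library 1 and library 2, and their ratios carry no genotype.

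Carbonic anhydrase 2, the product of Car2, is a cytosolic enzyme that interconverts carbon dioxide and bicarbonate, and it is abundant in red cells. Stem and multipotent progenitors with erythroid or megakaryocytic potential are known to carry low levels of transcripts of those lineages before commitment. Erythroid maturation is driven by the transcription factors GATA1 and KLF1, while GATA2 and NF-E2 are shared by stem cells and the megakaryocytic branch. The question put to these cells was whether they carried megakaryocyte-erythroid transcripts or those of stem-like cells.

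The data showed both. A broad erythroid content and the stem transcripts lay in different cells. Higher levels of megakaryocyte-list genes than in Car2-negative cells were seen in the same set of cells as the stem transcripts. In 5 of the 314 cells Car2 came with Car1 and other erythroid transcripts, and with almost none of the stem and multipotent genes. Klf1 was found in 3 of these 5 cells and Aqp1, which encodes a red-cell membrane protein, in 4. The other 309 cells held Ly6a, Ifitm1 and further stem and multipotent transcripts. Relative to depth-matched cells without Car2 they had more Nfe2, Krt18 and Cd9, and Irf8 was much lower over all 314 cells. Cells with 3 Car2 UMIs, just outside the choice, had similar levels of these genes. In the 309 cells the genes that define red-cell precursors and megakaryocytes were at or near 0.

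Library 1 held 86 of the Car2-high cells among its 3253 kept cells (2.64%, exact binomial 95% interval 2.12 to 3.25), and library 2 held 228 among 4570 (4.99%, 4.38 to 5.66). Library 2 was also deeper, with a median of 3836 UMIs per kept cell against 2830. With each cell thinned to 2000 UMIs before the rule was applied, the shares were 1.39% (0.965 to 1.94) and 2.09% (1.67 to 2.58). These intervals overlapped, which does not show that the shares were equal. With at least 4 Car2 UMIs and no other gate, the thinned shares were 2.09% (1.56 to 2.73) and 3.76% (3.19 to 4.40), without overlap. Over all kept cells Car2 was higher in library 2 (log2 0.23, 0.17 to 0.29). Within the Car2-high cells, which were chosen on Car2, it was lower there (log2 -0.25, -0.41 to -0.09). The part that depth played in the gap between the shares was not tested. Among the Car2-high cells the median depth was 2473 UMIs in library 1 and 3155 in library 2. Intervals throughout cover counting error only. With 1 library per genotype and cells that are not replicates, no test between conditions was possible, and "2-fold in both libraries" below is a rule of size. Of the 32 barcode sequences that occurred in both libraries, 3 belonged to Car2-high cells.

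Car2 itself lies at chr3:14886273-14900770 on the plus strand of GRCm38, and Car1, the gene of a second cytosolic carbonic anhydrase that is typical of erythroid cells, lies near it at chr3:14766216-14808368 on the minus strand. The Car2 count was 4 in 142 of the cells, 5 in 73, 6 to 9 in 86 and 10 or more in 13. The highest count was 11 in library 1 and 49 in library 2. Most of the cells therefore sat close to the threshold that selected them. Just outside it, the 250 cells with 3 Car2 UMIs that passed every other gate had an erythroid-list level of 253 CPM (counts scaled to 1000000 UMIs, exact Poisson 95% interval 219 to 290) and a stem-list level of 6283 (6112 to 6459). Just inside it, the 142 cells with 4 had 293 (246 to 347) and 6478 (6249 to 6714). The libraries differed here: the erythroid list was at 460 and 676 CPM in the cells with 3 and 4 of library 1, and at 139 and 183 in those of library 2. One of the 142 cells held Car1, in library 1, and without it the level just inside was 232 (190 to 281), below that of the cells with 3. In library 1 it was then 410 (294 to 556).

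The Car2-high cells fell into a set of 5 cells with a broad erythroid transcript content and a set of 309 without it. Car1 was found in exactly 5 of the 314 cells (1.59%, 0.519 to 3.68), 2 in library 1 and 3 in library 2. This split was made after the values had been seen and is a description. In library 1 the Car1 counts were 14 and 10 UMIs, and in library 2 they were 20, 18 and 7. The other 309 cells are those without a Car1 UMI, so their lack of Car1 follows from the split and is not a finding. No Car2-high cell held between 1 and 6 Car1 UMIs.

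The promoters of Klf1, Ermap, Rhd and Aqp1 are shown, because nearly all UMIs of these 4 genes among the Car2-high cells lay in these 5 cells. Each line gives the stretch of up to 250 bases before the start of the gene, on the strand of the gene, from RefSeq for GRCm38.p6. Capitals mark the GATA motifs AGATAA and TGATAA and the KLF motif CACACCC (with its longer form CCACACCC, which contains it), searched on both strands, so that TTATCA is TGATAA on the opposite strand.
Klf1, chr8:84901732-84901927, plus strand: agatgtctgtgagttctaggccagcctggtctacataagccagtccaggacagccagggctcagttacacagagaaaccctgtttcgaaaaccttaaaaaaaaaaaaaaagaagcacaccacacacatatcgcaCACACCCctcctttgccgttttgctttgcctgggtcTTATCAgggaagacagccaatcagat
Ermap, chr4:119190014-119190245, minus strand: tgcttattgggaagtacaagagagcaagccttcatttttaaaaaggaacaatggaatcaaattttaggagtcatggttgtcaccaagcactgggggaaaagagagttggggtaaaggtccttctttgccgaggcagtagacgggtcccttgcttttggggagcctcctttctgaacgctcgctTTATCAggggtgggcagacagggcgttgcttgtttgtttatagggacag
Rhd, chr4:134864286-134864535, plus strand: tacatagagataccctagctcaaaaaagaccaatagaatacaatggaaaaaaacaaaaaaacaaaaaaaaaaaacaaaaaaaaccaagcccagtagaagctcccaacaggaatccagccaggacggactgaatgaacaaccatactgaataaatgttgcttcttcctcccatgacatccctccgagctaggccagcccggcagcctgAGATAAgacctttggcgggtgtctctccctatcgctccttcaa
Aqp1, chr6:55336049-55336298, plus strand: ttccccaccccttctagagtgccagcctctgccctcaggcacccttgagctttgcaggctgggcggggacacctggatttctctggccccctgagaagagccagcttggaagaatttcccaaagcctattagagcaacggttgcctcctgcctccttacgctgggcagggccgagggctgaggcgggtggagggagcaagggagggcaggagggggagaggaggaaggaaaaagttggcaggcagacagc

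The Klf1 stretch held motifs of both kinds, those of Ermap and Rhd held a GATA motif only, and none of the motifs was found in that of Aqp1. Of the 22 erythroid-list genes with a promoter in the table, 11 held AGATAA or TGATAA in the 250 bases before the start and 3 held CACACCC. Over all 27025 genes with a promoter the shares were 18.8% and 7.90%. Of the 13 megakaryocyte-erythroid transcription factors with a promoter, 5 held a GATA motif and 3 held CACACCC. A match is a description of these letters and not a binding site.

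Klf1, the erythroid Krüppel-like factor, had 5 UMIs in 3 of the 5 Car1-positive cells and 1 UMI in the other 309. Gata1 had 1 UMI among the 5 cells and none among the 309. Gata2 had no UMI in the 5 cells and 13 UMIs in 13 of the 309. The 5 cells held 13807 UMIs in all, so that a count of 0 allows up to 217 CPM (3 counts), and the absence of Gata2 from them is not informative at this depth.

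Surface and transport proteins of red cells made up much of the rest. Aqp1, the aquaporin of the red-cell membrane, had 6 UMIs in 4 of the 5 cells. Rhag and Rhd, which encode proteins of the Rh complex, had 5 and 4 UMIs in 2 cells each, and Ermap, an erythroid membrane protein, had 2 UMIs in 2 cells. Cldn13, a claudin known from mouse erythroid cells, had 5 UMIs in 2 cells and the metallothionein gene Mt2 had 10 UMIs in 3. Aqp1, Rhag, Rhd, Ermap, Cldn13 and Mt2 had no UMI in any of the 309 other Car2-high cells.

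Blvrb, the gene of biliverdin reductase B, was present in all 5 Car1-positive cells with 26 UMIs, or 1883 CPM. In the other 309 cells it had 46 UMIs in 44 cells, or 46.9 CPM (34.3 to 62.6), against 35.6 CPM in the depth-matched Car2-negative cells. Blvrb therefore stood out in level and not by presence alone. Slc4a1, which encodes the band 3 protein of later red-cell precursors, had no UMI in any of the 314 cells, and the α-globin gene Hba-a1 had 1 UMI in the 5 cells.

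Summed over the erythroid list without Hbb-bt and Car1, the 5 cells held 6 to 26 UMIs each, and none of the other 309 held more than 4. The stem and multipotent list showed the opposite split, with 0 to 3 UMIs in the 5 cells and 4 to 60 (median 19) in the 309, so that the sets did not overlap in either list. Depth did not separate them, at 1095 to 4787 UMIs (median 2864) in the 5 cells and 947 to 8449 (median 2904) in the 309. Ly6a, which encodes the sort marker Sca-1, had no UMI in the 5 cells and 450 UMIs in 213 of the 309, or 459 CPM, above the 217 CPM that a count of 0 allows. Cd34 had 1 UMI in the 5 cells, or 72.4 CPM, and was at 488 CPM in the 309. Kit and Flt3 were too low in the 309 cells for a count of 0 in 5 cells to be read.

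**Figure D1:**
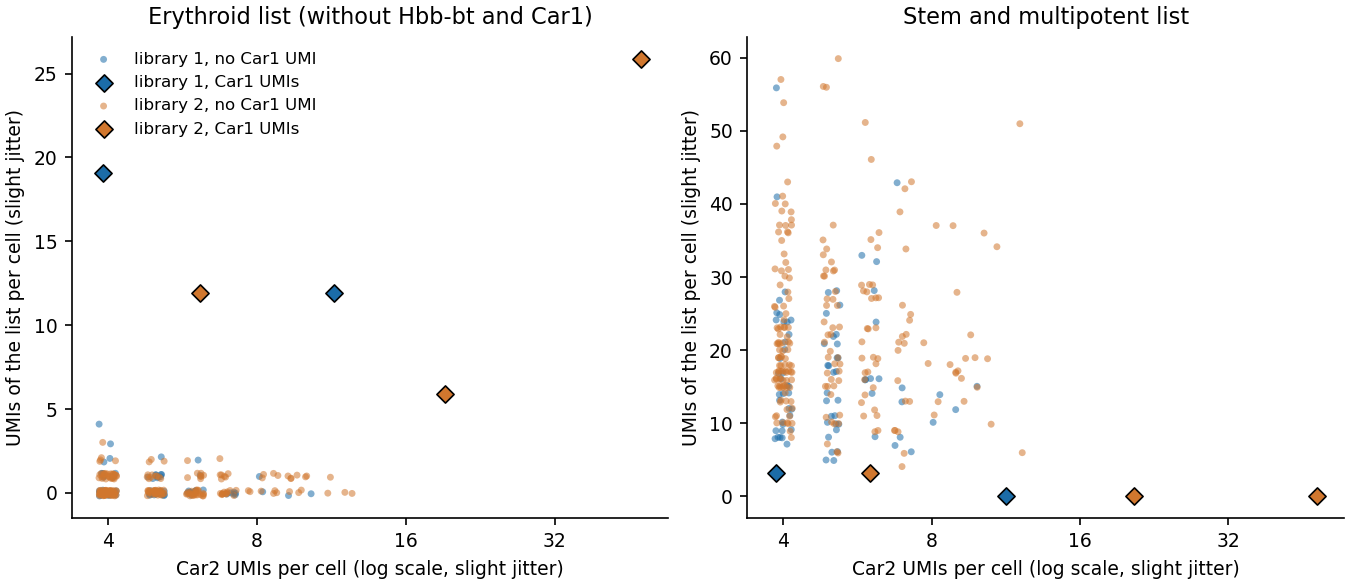
Each point is 1 of the 314 Car2-high cells, with its Car2 UMIs on a log scale and its UMIs of the erythroid list (left, without Hbb-bt and Car1) or the stem and multipotent list (right) on a linear scale, coloured by library. The 5 diamonds are the cells with Car1 UMIs: on the left they lie above all 309 other cells, and on the right they hold 0 to 3 UMIs, below the others.

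Among the 7509 kept cells outside the Car2-high choice, 5 had a Car1 UMI, all in library 2. One of them held 31 Car1 and 63 Car2 UMIs with 22 of Blvrb, and it was kept out by 2 Dntt and 3 stem-gene UMIs in a total of 13705. The other 4 held 1 Car1 UMI each. Cells with more than 1 Car1 UMI thus numbered 6 of 7823, and 5 of these were among the Car2-high cells. No doublet calls were made, and the part that doublets or free RNA played in these counts was not tested.

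For the comparison with other cells, each Car2-high cell was set beside 3 kept cells of its own library with no Car2 UMI and total UMIs within 10%, none used again. This gave 942 Car2-negative cells with a median of 2882.5 UMIs, against 2884 in the Car2-high cells. Because the rule also removed lymphoid, granule and stem-gene cells from the Car2-high side alone, a further set of 314 Car2-negative cells that passed the same gates was matched 1 to 1. The first set holds cells that the gates would have removed, so differences from it in lymphoid and myeloid genes follow in part from the rule. Both values are given below for the main lists and some of the genes. A ratio given alone, with no set named, is against the first set and may differ with the same gates.

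The erythroid list was at 600 CPM in the Car2-high cells of library 1 and at 342 in those of library 2, against 178 and 119 in the Car2-negative cells. Over both libraries the log2 ratio was 1.60 (1.40 to 1.81), and 1.46 (1.18 to 1.74) against the cells with the same gates. Of the 31 genes of the list, 26 had a UMI in the Car2-high cells and 5 had the 50 UMIs over both sets of cells needed for a ratio. Of these, Car1 and Hbb-bt were at least 2-fold higher in both libraries, where 0.688% of the 5963 genes tested were, and the median log2 ratio was 1.03 beside 0.01 over all genes tested. Car1 and Hbb-bt are 2 of 5 genes only, and the members were chosen on a gene of this lineage, so the count is a description.

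Much of that excess sat in the 5 Car1-positive cells. Without them the erythroid log2 ratio was 0.96 (0.72 to 1.19), and 0.79 (0.490 to 1.097) against the same-gate cells. What remained was led by the β-globin gene Hbb-bt. Its level was 202 CPM in library 1 and 123 in library 2, against 85.2 and 22.1 in the Car2-negative cells (log2 1.96, 1.59 to 2.33) and 135 and 51.0 in the same-gate cells. It was detected in 55 Car2-high cells (17.5%) and in 5.41% of the Car2-negative cells. Its highest count in a cell was 12 UMIs, and the 5 cells with most of it held 33.6% of its UMIs. In library 1 the share of the top 5 cells was 68.9%, and the other 81 cells of that library were at 68.1 CPM (37.2 to 114). Top cells were left out on the Car2-high side alone, which lowers that side. The level in library 1 therefore cannot be compared with that of the Car2-negative cells. In library 2 the other 223 cells were at 79.7 (60.8 to 103), which was above the 22.1 of all Car2-negative cells there even so.

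Only 2 of these 55 cells carried Car1. The other globin genes were nearly silent in the 309 Car1-negative cells, with 2 UMIs of Hbb-bs and 1 each of Hba-a1 and Hba-a2. Hbb-bt and Hbb-bs share 36.3% of the 50-base windows in the last 300 bases of the Hbb-bt transcript, so some reads cannot be assigned between them. Globin messages are a usual content of free RNA in marrow, and its part in the Hbb-bt counts was not tested. Without Hbb-bt and Car1, the log2 ratio of the erythroid list over all 314 cells was 0.996 (0.72 to 1.27). Over the 309 cells without Car1 it was 0.29 (-0.04 to 0.61), with 0.77 (0.11 to 1.40) in library 1 and 0.12 (-0.26 to 0.50) in library 2. It was 0.59 (0.16 to 1.03) against same-gate cells matched to them. These values were computed after the data had been seen.

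Among genes that work in erythropoiesis but are not restricted to it, the haem synthesis and iron handling lists differed little over all 314 cells. Tfrc, the transferrin receptor, which is also on the erythroid list, was lower, at 11.1 CPM against 21.1 (log2 -0.93, -2.01 to 0.00). The haem synthesis list was at 640 against 635 (log2 0.01, -0.12 to 0.14), with none of its 7 genes with enough UMIs past 2-fold. In the 5 Car1-positive cells that list had 22 UMIs, or 1593 CPM (999 to 2412), and in the 309 it was at 626 (578 to 678). The iron handling list was at a log2 ratio of -0.02 (-0.06 to 0.03). Epor, the erythropoietin receptor, had 1 UMI in the 5 cells and 1 in the 309.

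The megakaryocyte list was at 403 CPM in library 1 and 372 in library 2, against 194 and 175 in the Car2-negative cells. The log2 ratio was 1.08 (0.89 to 1.27), and 0.65 (0.42 to 0.89) against the cells with the same gates. Leaving out the Car1-positive cells gave 1.07 (0.87 to 1.26). Of the 28 genes asked for, 27 were in the table, 19 had a UMI in the Car2-high cells, and 3 of the 5 with enough UMIs were at least 2-fold higher in both libraries, beside 0.688% of all genes tested. Against the same-gate cells none of 4 was, beside 0.293% of all genes tested.

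Nfe2, which encodes a subunit of the megakaryocyte-erythroid factor NF-E2, was at 125 and 139 CPM in libraries 1 and 2, against 62.7 and 51.1 in the Car2-negative cells. The log2 ratio was 1.34 (0.997 to 1.68), or 0.84 (0.42 to 1.26) with the same gates. Its UMIs were spread over 101 of the 314 cells, with no more than 4 in any of them.

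Cd9, a tetraspanin found on platelets and on stem cells, was at 34.2 CPM over both libraries against 10.1 (log2 1.76, 1.01 to 2.52). In library 1 it was at 31.4 and the same-gate cells held as much (36.0), while those of library 2 held 5.23. Angpt1, an angiopoietin made by stem and megakaryocytic cells, was at 44.2 against 18.5 over both libraries (log2 1.26, 0.66 to 1.86). The genes that define megakaryocytes were near 0: Pf4, platelet factor 4, had 3 UMIs in the 309 cells and Itga2b, the integrin αIIb chain, had 8, against 2 and 7 in 942 Car2-negative cells.

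The transcription factors of both lineages moved little as a list, at 656 CPM against 561 (log2 0.22, 0.09 to 0.36). Of the 9 with enough UMIs, Nfe2 alone was at least 2-fold higher in both libraries. Among factors too sparse for that count, Gata2 had 13 UMIs against 7 in the Car2-negative cells (log2 2.48, 1.05 to 4.04). Klf1 had 6 against 2 (log2 3.17, 0.68 to 6.51). Lmo2, Lyl1 and Tal1, partners in the stem cell and erythroid complexes, had log2 ratios of 0.25 (-0.12 to 0.61), 0.02 (-0.37 to 0.41) and 0.52 (-0.60 to 1.57). Myb, a regulator of proliferating progenitors, was at 47.3 against 68.5 (log2 -0.53, -1.02 to -0.07).

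**Figure D2:**
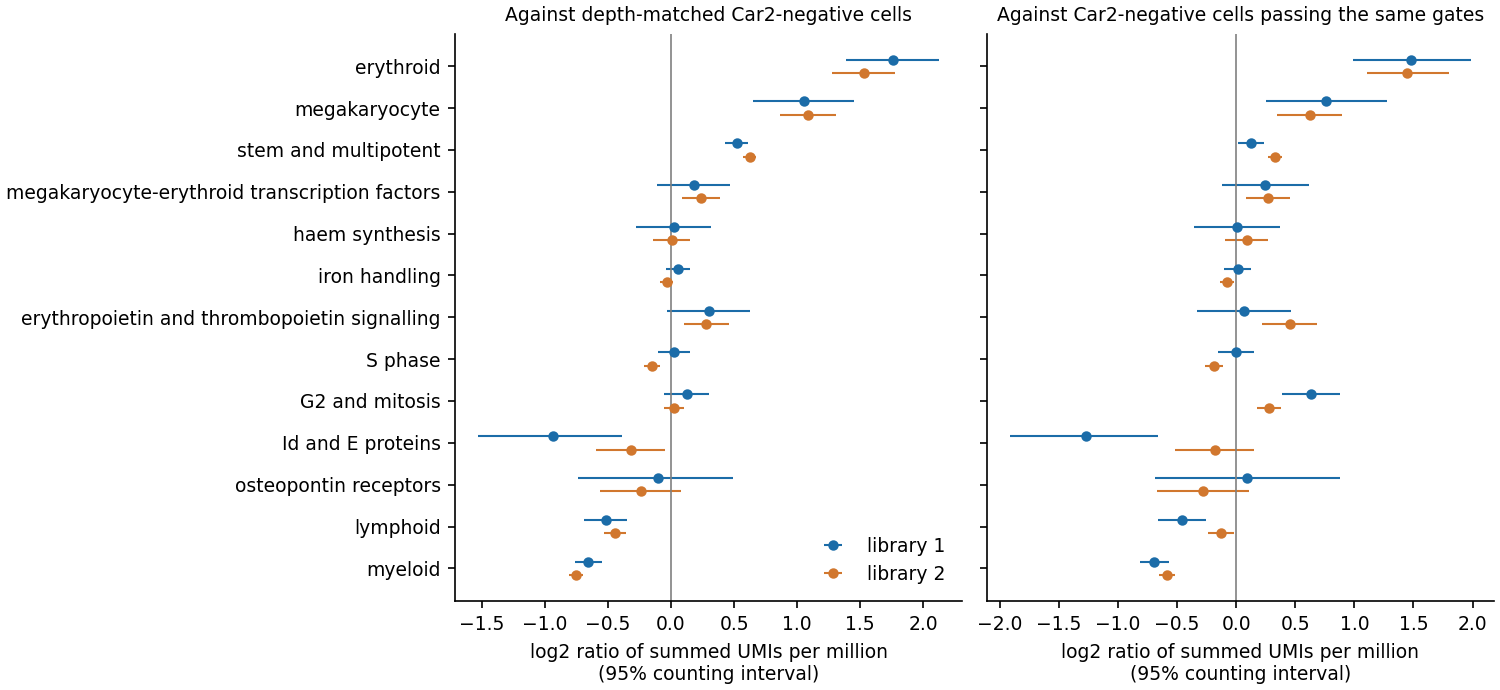
Log2 ratios of summed CPM in the Car2-high cells over Car2-negative cells, by gene list and library, with 95% counting intervals; the left panel uses depth-matched cells of any kind and the right panel cells that passed the same gates. The erythroid and megakaryocyte lists lie to the right of 0 in both panels and both libraries, and the stem list lies nearer to 0 in the right panel (0.28 over both libraries) than in the left (0.60).

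The stem and multipotent list was the most abundant of the 3, at 6349 CPM in library 1 and 6577 in library 2, against 4427 and 4272 in the Car2-negative cells. The log2 ratio was 0.60 (0.56 to 0.64). Against the cells with the same gates it was 0.28 (0.23 to 0.33), or 0.12 (0.01 to 0.23) in library 1 and 0.33 (0.27 to 0.39) in library 2. Of 14 genes with enough UMIs, 3 were at least 2-fold higher in both libraries, beside 0.688% of all genes tested, and none was lower. The median log2 ratio was 0.50 beside 0.01 over all genes tested. Against the same-gate cells 1 of 13 was higher, beside 0.293% of all genes tested, with a median log2 ratio of 0.27. The list holds genes outside the 4 of the stem gate, which capped those 4 at 1 UMI.

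Ly6a, the gene of the sort marker Sca-1, was at 493 and 441 CPM in libraries 1 and 2, against 246 and 290 in the Car2-negative cells. It was found in 213 of 314 cells (67.8%) against 48.1%, with a log2 ratio of 0.69 (0.52 to 0.86), or 0.38 (0.18 to 0.59) with the same gates. The interferon-inducible membrane genes Ifitm1 and Ifitm3, both high in stem cells, had log2 ratios of 0.63 (0.56 to 0.69) and 0.57 (0.49 to 0.65). In library 1 Ifitm1 was at 2895 in the Car2-high cells and at 3065 in the same-gate cells, so that its excess there was seen against the first set alone. Pdzk1ip1, a small membrane protein used to mark stem cells, was at 26.9 and 18.2 against 10.5 and 1.73 (log2 2.45, 1.32 to 3.65).

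Krt18, a keratin, was at 67.2 and 72.6 CPM in libraries 1 and 2, against 25.4 and 21.2 in the Car2-negative cells (log2 1.69, 1.18 to 2.19), with a log2 ratio of 1.38 (0.73 to 2.08) against the same-gate cells. It was spread over 61 cells, with at most 4 UMIs in a cell. Meg3, a maternally expressed long non-coding RNA active in stem cells, was concentrated instead, with 53 UMIs in 23 cells and 41.5% of them in 5 cells.

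**Figure D3:**
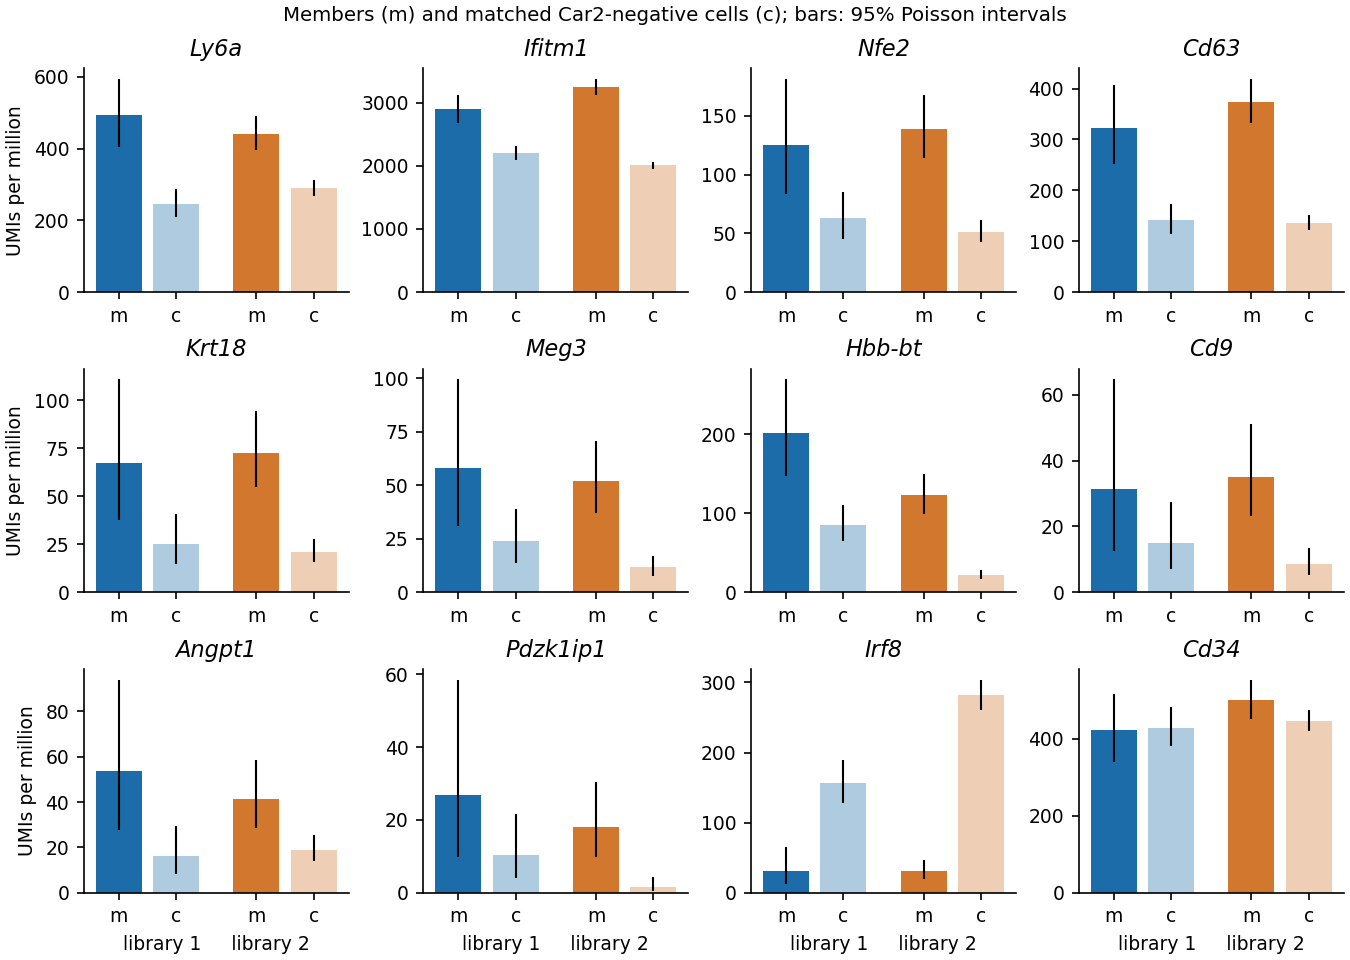
Levels in CPM, by library, of 12 genes in the Car2-high cells (m) and in the depth-matched Car2-negative cells (c), with exact Poisson 95% intervals. Ly6a, Ifitm1, Nfe2, Cd63, Krt18, Meg3, Hbb-bt, Cd9, Angpt1 and Pdzk1ip1 are higher in the Car2-high cells of both libraries, Irf8 is lower in both, and Cd34 lies within its intervals (log2 0.12, -0.03 to 0.28).

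The direct comparison with stem-gated cells rested on very few cells, since those with no Car2 and at least 3 UMIs of the 4 stem genes that also passed the other gates numbered 9. Against these 9 cells, 9 matched Car2-high cells had a stem-list log2 ratio of 0.01 (-0.32 to 0.35). With the stem gate lowered to 2 UMIs, an alternative chosen after the data had been seen, 33 stem-gated cells could be matched to 99 Car2-high cells. The stem list was then at 6549 against 6070 CPM (log2 0.11, -0.03 to 0.25). The megakaryocyte list was at 433 against 342 (log2 0.34, -0.23 to 0.94) and the erythroid list at 429 against 104 (log2 2.05, 1.12 to 3.14), the last from 10 UMIs on the stem-gated side. By library the erythroid ratio was 0.99 (-0.10 to 2.29) in library 1 and 3.67 (1.76 to 6.74) in library 2, where the stem-gated cells held 2 UMIs. The part that Car1-positive cells played in these erythroid ratios was not tested. Over all 309 Car1-negative cells the erythroid list was at 256 CPM (225 to 290), so the ratios cannot be read as those of Car2-high cells in general. The intervals leave differences in the stem and megakaryocyte lists undetected at this depth.

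Across all genes, 41 of 5963 were at least 2-fold higher in both libraries and 39, or 0.654%, were at least 2-fold lower. Scaled with TMM factors, which shift all log2 ratios by -0.05, these numbers were 29 and 44. Car1 led with 69.4 CPM against 1 UMI in the Car2-negative cells (log2 7.69, 5.17 to 13.02). Tgfbi, a secreted matrix protein, was at 44.8 and 48.0 CPM in libraries 1 and 2 against 10.5 and 6.92 (log2 2.61, 1.87 to 3.401), and at a log2 ratio of 0.84 (0.12 to 1.59) with the same gates. Ltb, the lymphotoxin β gene, followed at 1.98 (1.13 to 2.85), but at 0.76 (-0.15 to 1.72) with the same gates. Cd63, a tetraspanin of endosomes and granules, was broad, in 192 of 314 cells (61.1%) against 28.1%, at 323 and 373 against 142 and 136 (log2 1.40, 1.19 to 1.61). The glutathione transferase gene Mgst1 (log2 1.69, 1.11 to 2.28) and the haem-binding protein gene Hebp1 (log2 1.71, 1.09 to 2.33) were also among the 20 highest. Others of these 20 were Gng11, Myct1, Otos, Flywch2, Plscr1, Ppic, Tgtp1, Smim3 and S100a4, with log2 ratios between 1.38 and 1.83. Tgtp1 shares all windows of its last 300 bases with Tgtp2, so its counts cannot be assigned to either.

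With the same gates on both sides, 12 of 4090 genes (0.293%) were at least 2-fold higher and 10 (0.244%) at least 2-fold lower in both libraries. Only 5 of the 41 and 3 of the 39 genes were also past 2-fold here, which is 12.2% and 7.69% of them, and fewer genes had the 50 UMIs needed. The 12 higher genes were Car1, Krt18, Hebp1, Mgst1, Capg, Selenbp1, Cox6b2, Cpq, Tpp1, Wdr45, Wdyhv1 and Zfp644. Capg, an actin-capping protein, had 139 UMIs in the Car2-high cells (log2 1.08 with the same gates) and Selenbp1, a selenium-binding protein, had 83 (log2 2.02). Both are named here because of these values. The 10 lower genes included Irf8, Cst7, Fcer1g and Hnrnpa0 and the class II genes Cd74, H2-Aa, H2-Ab1 and H2-Eb1.

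Of the 39 lower genes, 5 were on the myeloid and 3 on the lymphoid list. Irf8, the factor of the monocyte and dendritic lineages, was at 31.4 and 31.1 CPM in libraries 1 and 2, against 157 and 281 in the Car2-negative cells and 256 and 263 in the same-gate cells (log2 -3.02, -3.59 to -2.51, and -3.07). It was found in 20 of the 314 cells. In library 1 its 7 UMIs lay in 2 cells, 6 of them in 1 cell rich in class II transcripts, and without that cell its level there was 4.63 CPM (0.117 to 25.8). Plac8, a cytosolic protein of myeloid and lymphoid progenitors, was at 1308 and 1526 against 3069 and 3305 (log2 -1.14, -1.22 to -1.06), or -0.76 (-0.86 to -0.67) with the same gates. Cst7, a cystatin of killer and myeloid cells, had a log2 ratio of -1.80 (-2.18 to -1.43).

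Ly6d, a marker of lymphoid commitment, had no UMI in the Car2-high cells against 241 in the Car2-negative cells, at least 26.8-fold lower when 3 counts over all 314 cells are taken as the limit. The same limit gave at least 10.6-fold for Ly86, a partner of a B-cell receptor of the Toll family, and at least 5.78-fold for the B-cell adaptor Blnk. The same-gate cells held 41, 26 and 4 UMIs of these genes. As the rule set Dntt and Il7r to 0, low lymphoid genes follow in part from the choice of cells. Cox6a2 was at 6.03 against 172 (log2 -4.84, -6.29 to -3.71). The myeloid list was lower at log2 -0.73 (-0.78 to -0.68), with 5 of 13 genes past 2-fold, and the lymphoid list at -0.46 (-0.54 to -0.38), with 3 of 16, beside 0.654% of all genes tested. With the same gates these were -0.61 (-0.67 to -0.55) and -0.21 (-0.30 to -0.11). The dendritic list, mostly class II genes, was at 471 CPM against 706 in the Car2-negative and 1802 in the same-gate cells.

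Of the sort markers, Cd34 was level at 483 against 443 CPM (log2 0.12, -0.03 to 0.28), and Kit was at 49.3 against 29.2 (log2 0.76, 0.22 to 1.28). Flt3, the receptor that marks lymphoid-primed progenitors, was at 116 against 159 (log2 -0.46, -0.76 to -0.16), but within its interval with the same gates (log2 -0.12, -0.50 to 0.26). Cd48, which is low on stem cells, was at 127 against 219 (log2 -0.79, -1.08 to -0.52) and stayed lower with the same gates (log2 -0.48, -0.82 to -0.14). Slamf1 had 1 UMI in the 314 cells.

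Signalling genes downstream of erythropoietin and thrombopoietin were slightly higher as a list (log2 0.28, 0.13 to 0.44). None of the 10 with enough UMIs was 2-fold higher in both libraries and 1 was lower. The kinase gene Pim1 was at 137 against 102 CPM (log2 0.42, 0.12 to 0.71) and Stat3 at 64.4 against 41.3 (log2 0.64, 0.18 to 1.09). That one was Il6st, the shared receptor chain of the interleukin 6 family, at 4.02 against 20.1 (log2 -2.32, -4.25 to -0.89). The Id and E protein list was at log2 -0.45 (-0.70 to -0.21), and the osteopontin receptors at -0.21 (-0.49 to 0.07).

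Cell-cycle genes set the cells apart only modestly. After thinning to 2000 UMIs, 14.7% of the Car2-high cells (10.5 to 19.9) held 10 or more UMIs of the G2 and mitosis list, against 12.5% (10.1 to 15.1) of the Car2-negative cells and 8.37% (5.19 to 12.6) of the same-gate cells. The summed list was at log2 0.04 (-0.03 to 0.11) and 0.33 (0.24 to 0.42). The S-phase list was at -0.11 (-0.17 to -0.06) and -0.15 (-0.22 to -0.08).

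Among cells passing every other gate, the lists were followed over classes of Car2 count, each cell thinned to 2000 UMIs after its class was set. The megakaryocyte list was at 227 CPM (197 to 260) in 458 cells with no Car2, at 297 (265 to 333) in 516 cells with 2 or 3 and at 430 (324 to 559) in 64 cells with 6 to 9. The stem list was at 5401, 6336 and 6797 in these classes, but at 6233 with 4 or 5 and at 5500 (4564 to 6572) with 10 or more, so it did not rise steadily. The myeloid list was at 5547, 4039 and 3648 in the same 3 classes. Nfe2 was at 71.0 (54.8 to 90.4), 115 (95.5 to 138) and 211 (139 to 307).

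The erythroid list behaved differently. It was at 175 (149 to 204) with no Car2, 193 (167 to 222) with 2 or 3, 391 (290 to 515) with 6 to 9 and 1000 (627 to 1514) in the 11 cells with 10 or more. Leaving out the cells with Car1, 1 in each class from 4 upwards, gave 235 (185 to 294) with 4 or 5, 278 (193 to 386) with 6 to 9 and 150 (30.9 to 438) in the top class. The level of 1000 thus rested on 1 cell. The libraries differed: in library 1 the list was at 622 (470 to 808) with 4 or 5 and had 1 UMI in 11 cells with 6 to 9, while in library 2 it was at 174 (125 to 236) and 462 (342 to 611). Without the cells with Car1 these were 398 (277 to 553) with 4 or 5 in library 1 and 327 (226 to 457) with 6 to 9 in library 2. The megakaryocyte list without these cells was at 413 (308 to 541) and 500 (240 to 920) in the 2 top classes. The class of 10 or more is too small to order.

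**Figure D4:**
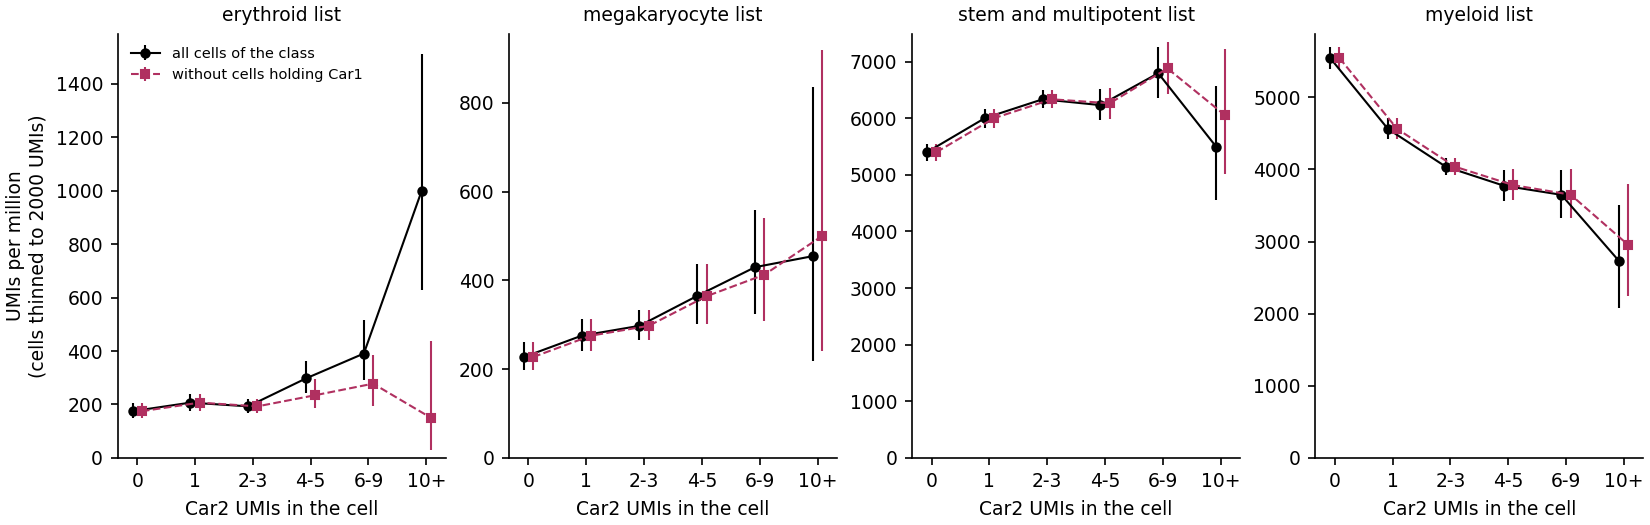
Levels of 4 gene lists in CPM (linear axes) by the number of Car2 UMIs in the cell, for cells that passed every other gate and were thinned to 2000 UMIs, with exact Poisson 95% intervals over both libraries. Black circles are all cells and red squares leave out those with Car1: the curves part furthest in the erythroid panel, where the class of 10 or more is at 1000 with and 150 without them.

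Car2 was not restricted to these cells. After thinning, 43.4% (42.1 to 44.6) of all kept cells that were deep enough had a Car2 UMI. The share was 59.0% (54.0 to 63.9) in cells with 2 or more UMIs of the 4 stem genes, 29.3% (26.8 to 31.8) in cells with 4 or more of Dntt, 25.5% (22.2 to 29.0) in cells with 4 or more granule UMIs and 9.80% (3.26 to 21.4) in cells with 2 or more of Il7r. The share in the stem-gene cells lay above the intervals of the 3 other kinds at equal depth, and every kind held some Car2.

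Between the libraries, the Car2-high cells of library 2 had 74 of 2576 genes (2.87%) at least 2-fold above library 1 and 17 (0.66%) at least 2-fold below, with a median log2 ratio of 0.10 against 0.14 for the same genes in all kept cells. The stem list (log2 0.05, -0.03 to 0.14) and the megakaryocyte list (log2 -0.12, -0.46 to 0.24) lay within their intervals. The erythroid list was lower in library 2 (log2 -0.81, -1.12 to -0.50), where Hbb-bt alone was at log2 -0.71 (-1.24 to -0.17) and at -1.07 in all kept cells. The G2 and mitosis list was higher (log2 0.59, 0.43 to 0.76), by 0.73 in all kept cells. Spp1 had 7 UMIs in 4 of the 86 cells of library 1 and none in the 228 of library 2, which allows a share of up to 1.32%. In the matched Car2-negative cells it was found in 3 of 258 and 0 of 684.

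Of the 8 genes highest in library 2 within these cells, 4 were also at least 2-fold higher in that library over all kept cells. Ppia, a cyclophilin, was at 152 and 908 CPM (log2 2.57, with 2.78 in all kept cells), Erh at 22.4 and 167 (2.90, with 2.06), Gstp1 at 8.96 and 70.0 (2.97, 1.04 to 6.05, from 2 UMIs in library 1, with 3.97) and Eno1 at 49.3 and 178 (1.85, with 1.72). In the last 300 bases Gstp1 shares all windows with Gstp2, Erh 93.2% with Gm10131, Eno1 90.0% with Eno1b and Ppia 21.5% with Gm6061, so counts can be split between genes. Ier2, an immediate early gene, was at 31.4 and 113 (log2 1.85, 0.74 to 3.20), with 0.55 in all kept cells, and Mrpl37, Ddah2 and Pde6d, the others of the 8, were at 0.26, 0.02 and 0.79 in all kept cells.

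Among the 8 smallest ratios, much of the class II signal came from 1 cell. Cd74, the invariant chain, had 115 UMIs in the 86 cells of library 1, of which 1 cell held 65, and that cell also held 25 of 39 H2-Aa and 37 of 63 H2-Ab1 UMIs, with 6 UMIs of Irf8 and 81 of Cst3, the cystatin C gene. With it the library ratio of Cd74 was log2 -1.63 (-2.01 to -1.26), and without it -0.48 (-0.96 to 0.02). The cell had 4 Car2 UMIs in 7274 and none of Itgax, Siglech, Cd209a, Xcr1, Batf3 or Clec9a. Whether it was a doublet was not tested. Klf6 (log2 -1.39, -2.24 to -0.52), Hcst, Pglyrp1, Il2 and Gm6133 made up the rest, and Il2 shares part of its end with Ntan1.

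Markers of other cell types were sparse. Of 8 B-cell genes, 7 had no UMI in the 314 cells, Ms4a1 and Pax5 among them, and of 9 T- and NK-cell genes 7 had none, with Cd3d, Cd3e and Cd3g at 0. Of 15 basophil, mast cell and eosinophil genes 11 were at 0, Cpa3 and Ms4a2 included. The mature granulocyte list had 8 UMIs in 8 cells and the macrophage list 13 UMIs in 9. The mitochondrial share had a median of 0.44% and 0.52% in libraries 1 and 2, close to 0.47% and 0.51% in all kept cells.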

How the data were processed

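The authors deposited 1 matrix of UMI counts (unit: count) that pools both libraries, made with Cell Ranger 1.1 on mouse build mm10, per the submitters' processing notes. Other processing steps are not given in the sources used here. Barcodes with at least 500 genes and under 10% mitochondrial UMIs were kept. UMIs were summed over cells and scaled to a total of 1000000 (CPM). Levels carry exact Poisson, shares exact binomial (Clopper-Pearson) and ratios exact conditional Poisson 95% intervals. Genes outside the rule with at least 50 UMIs were tested for a fold of 2 in each library, with 0.5 UMI added to each sum. The members, lists and comparisons were chosen with earlier results of these data known.

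Named genes were the 11 rule genes, up to 6 genes of each of 24 lists (most UMIs, or largest absolute log2 ratio with at least 20 UMIs), the 20 largest and 15 smallest ratios past the 2-fold rule, and the 8 largest and smallest library ratios, without mitochondrial, ribosomal and Y-linked genes and Xist. Genes named beside the Car1 split, and those past 2-fold against the same-gate cells, were chosen after their values were seen. The symbols Mpig6b and Trbc2 were not found. No doublet caller was run. Positions came from GENCODE M21 and promoters from RefSeq. Python 3.11.15, numpy 2.4.6, scipy 1.17.1 and edgeR 4.0.16 (TMM factors only) were used, and the procedure was tested on simulated data. Some genes that the rule names are not reported here.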

Additional observations from a re-analysis of the deposited data

How the results depend on the processing

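Of 74 alternatives, 42 left the result within its interval or within 1.5 times its count and 32 moved it. None of the list ratios changed sign, while gene counts and shares have no direction that could turn. The erythroid log2 ratio (1.60) was 2.46 with a Car2 minimum of 6 UMIs, 1.34 in thinned cells, 1.82 as a mean over cells, 0.96 without the Car1-positive cells, 0.996 without Hbb-bt and Car1, and 0.29 (-0.04 to 0.61) without both the Car1-positive cells and Hbb-bt, the last 3 chosen after seeing the data. The megakaryocyte ratio (1.08) moved only with the same gates (0.65). The stem ratio (0.60) was 0.55 with a Car2 minimum of 3 UMIs, 0.28 with the same gates, 0.55 with TMM factors and 0.53 without Ifitm1, Ifitm3 and Ly6a, also chosen afterwards.

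The 41 higher genes became 20 with a Car2 minimum of 6, 12 with the same gates, 98 against all Car2-negative cells in the UMI range, 22 in thinned cells, 22 without cells of 10 or more G2 and mitosis UMIs, 7 with a gene minimum of 200 UMIs and 237 with one of 10. The 39 lower genes became 25, 10 and 86 under the first 3 of these, and 11 and 150 under the gene minimums. The higher genes were 0.278% of 2514 tested, 0.688% of 5963 and 2.46% of 9625 with minimums of 200, 50 and 10 UMIs, and the cause was not tested.

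The shares in libraries 1 and 2 were 1.39% and 2.09% in thinned cells, 5.56% and 8.38% with a Car2 minimum of 3, 0.646% and 1.71% with one of 6, and 1.91% and 3.30% with no stem-gene UMI allowed. With at least 1000 genes and under 5% mitochondrial UMIs, that of library 2 was 4.35%. No paired analysis was possible because each genotype has 1 sample. Genes with few UMIs, and sets of 5, 9 or 33 cells, are limited by depth.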
